A study of Mus musculus with 6 samples.

Results

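Transcripts of receptors and enzymes of 2 lipid signals, lysophosphatidic acid (LPA) and sphingosine 1-phosphate (S1P), were compared between mouse embryonic fibroblasts with and without the LPA receptor gene Lpar6. The genes were chosen by name: the LPA receptors Lpar1, Lpar2 and Lpar4, the S1P receptors S1pr1, S1pr2 and S1pr3, and the enzymes Enpp2, Plpp1, Plpp3 and Sphk1. All probes annotated with one of these symbols were taken, which gave 20 of the 45281 probes and 9 of the 10 genes. Enpp2 was not analysed here. One group was Lpar6+/+ (wild type, 3 arrays, columns A to C) and the other Lpar6-/- (knockout, 3 arrays, columns D to F). Both came from a mix of the 129SV and C57BL/6 strains, and the labels name no treatment, embryo age or passage. The labels' title calls the study a knock-down, whereas the genotype of each sample is given as Lpar6+/+ or Lpar6-/-, which was used. No label states that arrays of a genotype stem from different embryos or cultures, so the p-values describe the spread between these arrays, which could be technical.

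LPA and S1P are small phospholipids that act outside the cell through G protein-coupled receptors. Lpar1 and Lpar2 belong to the same receptor family as the S1P receptors (the EDG family), whereas Lpar4 and Lpar6 belong to a separate family related to the P2Y purine receptors. Autotaxin, encoded by Enpp2, makes extracellular LPA from lysophosphatidylcholine, sphingosine kinase (Sphk1) makes S1P from sphingosine, and the lipid phosphate phosphatases Plpp1 and Plpp3 remove the phosphate of both lipids at the cell surface. In fibroblasts these lipids are known as serum factors that act on the cytoskeleton, migration and growth.

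Promoter sequences of RefSeq (build GRCm38.p6) were found for 7 of the 10 genes, Lpar1, Lpar2, Lpar4, S1pr2, S1pr3, Plpp3 and Sphk1, with 13 start sites in all. The 250 bases before the most upstream start are shown for the 3 genes that passed the test below, Lpar1, Lpar2 and Sphk1, and for S1pr2, a bright S1P receptor gene that did not pass. They are written 5′ to 3′ on the strand of the gene, and capitals mark matches, on either strand, to GGGCGG (the GC box of Sp1-type factors), TGACTCA (AP-1), CACGTG (an E-box), TTTCGCGC (E2F), GGAATG (TEAD) or TGACGTCA (the cAMP response element). No 2 marked matches overlap.
Lpar1, chr4:58553492-58553741, minus strand: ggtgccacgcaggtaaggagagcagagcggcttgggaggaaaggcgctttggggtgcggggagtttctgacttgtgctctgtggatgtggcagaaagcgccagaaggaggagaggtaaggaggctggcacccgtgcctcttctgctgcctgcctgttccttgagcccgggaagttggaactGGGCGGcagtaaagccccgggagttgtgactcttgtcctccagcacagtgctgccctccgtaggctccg
Lpar2, chr8:69822315-69822564, plus strand: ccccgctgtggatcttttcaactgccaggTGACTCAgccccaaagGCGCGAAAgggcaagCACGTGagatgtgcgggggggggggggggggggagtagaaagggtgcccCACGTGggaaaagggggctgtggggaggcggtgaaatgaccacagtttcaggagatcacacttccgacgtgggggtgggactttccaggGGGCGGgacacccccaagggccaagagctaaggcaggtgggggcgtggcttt
Sphk1, chr11:116530850-116531099, plus strand: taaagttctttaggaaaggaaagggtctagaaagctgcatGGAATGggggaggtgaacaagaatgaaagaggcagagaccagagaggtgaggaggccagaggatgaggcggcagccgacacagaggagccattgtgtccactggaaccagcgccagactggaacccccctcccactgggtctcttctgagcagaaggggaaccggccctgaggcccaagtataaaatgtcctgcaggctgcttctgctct
S1pr2, chr9:20976794-20977043, minus strand: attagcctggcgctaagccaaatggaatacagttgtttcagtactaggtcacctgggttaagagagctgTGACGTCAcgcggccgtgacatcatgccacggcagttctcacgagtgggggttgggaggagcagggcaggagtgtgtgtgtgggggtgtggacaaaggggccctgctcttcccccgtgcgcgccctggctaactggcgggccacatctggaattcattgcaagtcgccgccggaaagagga
Of these windows, that of Lpar2 held the most kinds of match: 1 to the AP-1 motif, 1 to the E2F motif, 2 to the E-box and 1 to the GC box, at 221, 205, 190, 141 and 52 bases before the start in that order. The Lpar1 window held 1 GC box, the Sphk1 window 1 TEAD motif and the S1pr2 window 1 cAMP response element. Among 32851 mouse promoter windows of the same length, 32.7% held the GC box, 12.6% the TEAD motif, 6.02% the E-box, 4.46% the AP-1 motif, 1.55% the cAMP response element and 0.256% the E2F motif. Lpar1 has 3 start sites and Sphk1 has 5, and a start further downstream can differ: 1 AP-1 match lay in the overlapping windows of 2 of the other Sphk1 starts, and 1 E-box in those of another 2. These matches describe the letters of the windows only.

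Each wild-type array detected 19646 to 20137 probes (detection p below 0.05), and each knockout array detected 19006 to 19249. Correlations over the kept probes were at least 0.993 within a genotype and at most 0.968 across genotypes. The single Lpar6 probe fell from intensities of 1373, 1223 and 1278 to 76.7, 77.9 and 76.0, which put it at the level of undetected probes (at least 37.5-fold lower, limma adjusted p = 1.51e-09). The position of that probe relative to the deletion is not known from the labels. All 10 fibroblast markers were kept. The summed normalized level of these markers lay between 42849 and 46016 in the wild type and between 67656 and 69681 in the knockout. The bright markers Col1a1 (13.30 to 14.14 on the log2 scale) and Thy1 (12.26 to 13.94) weigh much in this rise. Of these markers 7 were called higher and 0 lower, while Vim, Fn1 and Dcn did not pass by their brightest probes. Markers of other cell types differed on the same arrays, where 20.6% of all genes were called higher and 19.1% lower. Of the 11 adipocyte markers 9 were kept, all higher, with sums of 3513 to 4102 in the wild type and 10569 to 12286 in the knockout, while Fabp4 was not kept. Of the kept ones, Adipoq, Plin1, Cidec and Cidea were detected on no wild-type array. They passed the filter through the knockout arrays alone and could hardly be called other than higher. Of 9 neuronal markers 7 were kept, all lower (5630 to 5788 against 953 to 999), while Tubb3 and Snap25 were not kept. All 8 cartilage markers were lower (17592 to 17945 against 4254 to 4313). Of 10 endothelial markers 6 were kept (1756 to 1834 against 2294 to 2335), while the defining markers Pecam1, Cdh5, Cldn5 and Tie1 were not. Of these 6, 3 were called higher and 1, Tek, lower (-0.48). Of 10 macrophage and leukocyte markers 5 were kept (2270 to 2683 against 2043 to 2221), and Ptprc, the pan-leukocyte marker, was not. Fcer1g was called lower (-0.73) and C1qa higher (0.58), and the median change of these 5 was 0.11, opposite in sign to the shift of the sums. Of the 8 kept smooth muscle and pericyte markers 5 were called higher (Myh11, Des, Rgs5, Abcc9 and Kcnj8) and 0 lower, with a median change of 0.67. Their sums, in which Acta2 (log2 level 15.38 in the wild type, change -0.048) has the most weight, overlapped (43758 to 49245 against 45045 to 45683). The sums of 3 glial markers were 227 to 250 against 266 to 293. The part of these shifts in the results on the lipid receptors and enzymes was not tested, and in bulk RNA fewer cells of a type and less RNA per cell cannot be told apart.

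Of the 10 genes, 8 had a probe that passed the filter on low values (a detection p below 0.05 on at least 3 of the 6 arrays). Of these 8, 3 passed the test for a difference between genotypes: Lpar1 and Sphk1 rose and Lpar2 fell in the knockout. This is 37.5% of the kept genes, and over all 11040 genes tested 39.7% were called, 20.6% higher and 19.1% lower, so the share of these lipid genes that changed was near that of all genes. The median change of the 8 genes was -0.066 on the log2 scale and that of all genes 0.027, and the median size of the change was 0.21 against 0.24. Changes are differences of mean normalized log2 intensity, knockout minus wild type ± SE (3 arrays in each group), and adjusted p-values are those of limma over all kept probes. Levels of different probes are not set against each other, since probes differ in brightness for the same amount of RNA.

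**Figure D1:**
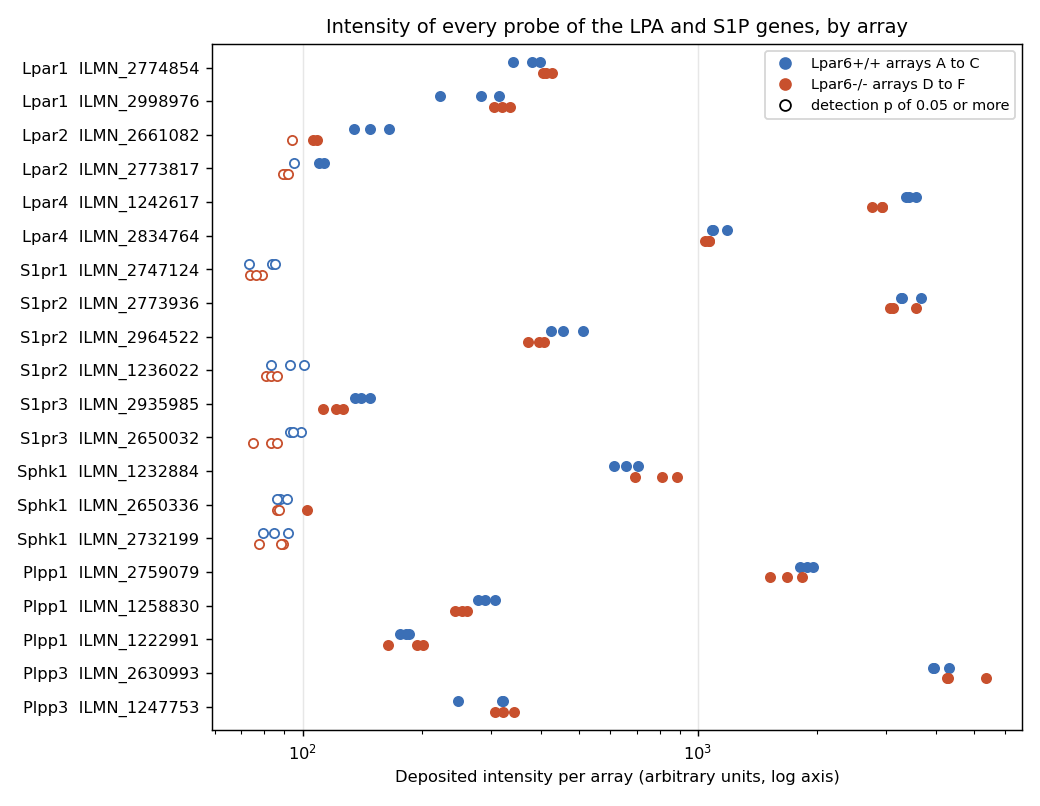
Deposited intensity (arbitrary units, log axis) of all 20 probes of the 9 genes with a probe; each point is 1 array, blue for Lpar6+/+ and red for Lpar6-/-, and open points have a detection p of 0.05 or more. The S1pr1 probe is open on all 6 arrays, and Lpar6-/- points lie lower without overlap for 6 of the 14 kept probes and higher for 1, beside 39.4% and 10.6% of all kept probes.

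Among the LPA receptor genes, Lpar1 was higher and Lpar2 lower in the knockout, while Lpar4 did not pass. Lpar1 encodes the most widely expressed LPA receptor of the EDG family. Its brighter probe (ILMN_2774854) read 398, 382 and 340 on the wild-type arrays and 407, 427 and 414 on the knockout arrays. All knockout values lay above all wild-type values, by little. After background correction and normalization the level was 8.14 ± 0.074 (SD, n = 3) in the wild type and 8.54 ± 0.0023 in the knockout, a rise of 0.40 ± 0.086 or 1.32-fold (adjusted p = 0.00601). The second Lpar1 probe (ILMN_2998976) read 314, 284 and 223 in the wild type and 334, 305 and 320 in the knockout. Its intensities overlapped between genotypes and its normalized values did not, with a rise of 0.54 ± 0.13 (adjusted p = 0.0108) that did not pass with median scaling (0.38, adjusted p = 0.0534). A change larger in size than that of Lpar1 was found in 30.4% of all genes. When arrays were scaled to their medians instead of quantile-normalized, the change of Lpar1 was 0.26 and did not pass (adjusted p = 0.084, with a range of 0.000493 to 0.084 over 18 alternatives). Median scaling moved the median change of all genes from 0.027 to -0.082, and relative to that median Lpar1 was 0.34 higher there and 0.37 higher in the main setting.

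Lpar2, which encodes a second EDG-family LPA receptor, was the 1 gene of the 8 that was called lower. Its brighter probe (ILMN_2661082) read 165, 135 and 148 on the wild-type arrays and 109, 106 and 94.1 on the knockout arrays. The groups did not overlap, and knockout array F missed the detection threshold narrowly with a detection p of 0.0502. The normalized level was 6.16 ± 0.27 (SD, n = 3) in the wild type and 5.25 ± 0.25 in the knockout, a fall of 0.91 ± 0.16 (1.88-fold, adjusted p = 0.0019), and 8.09% of all genes had a larger change. The size of the fall is uncertain so close to background: the change was -0.40 in a fit of the authors' log2 values, -0.55 with an offset of 50 and -0.28 with no background correction, and it passed each time. Its change was the largest in size of the 8 genes in the main setting, but with the authors' values (Sphk1 0.41) and with no background correction (Sphk1 0.38, Lpar1 0.29) it was not. A dimmer Lpar2 probe (ILMN_2773817) was not kept. It read 110, 113 and 95 in the wild type, with detection on 2 arrays, and 91.1, 89.1 and 91.7 in the knockout, with detection on none. That probe too lay lower in the knockout without overlap, by at least 1.08-fold against the detection limit, and in a fit of all probes without the filter its change of -0.36 did not pass (adjusted p = 0.0759).

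Lpar4 encodes an LPA receptor of the same P2Y-related family as Lpar6. Its brighter probe (ILMN_1242617) read 3420, 3360 and 3558 in the wild type and 2758, 2918 and 2917 in the knockout, with no overlap. The normalized change was -0.24 ± 0.098 (95% confidence interval -0.46 to -0.01) and did not pass over all probes (adjusted p = 0.0883). It passed under 6 of the 18 alternatives, among them the authors' log2 values (-0.23, adjusted p = 0.0172) and the fit without wild-type array A (-0.32, adjusted p = 0.0495), and the range over all alternatives was 0.0137 to 0.346. The second Lpar4 probe (ILMN_2834764) read 1188, 1092 and 1085 in the wild type and 1068, 1041 and 1069 in the knockout. These intensities were lower in the knockout, but the normalized values overlapped, with a change of 0.03 ± 0.088 (95% confidence interval -0.16 to 0.23, adjusted p = 0.797). The probes of Lpar4 therefore did not give 1 answer. Of the remaining LPA receptor genes with a probe, Lpar3 read 81.4 to 107 over its 2 probes and was detected in 1 of 12 values.

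**Figure D2:**
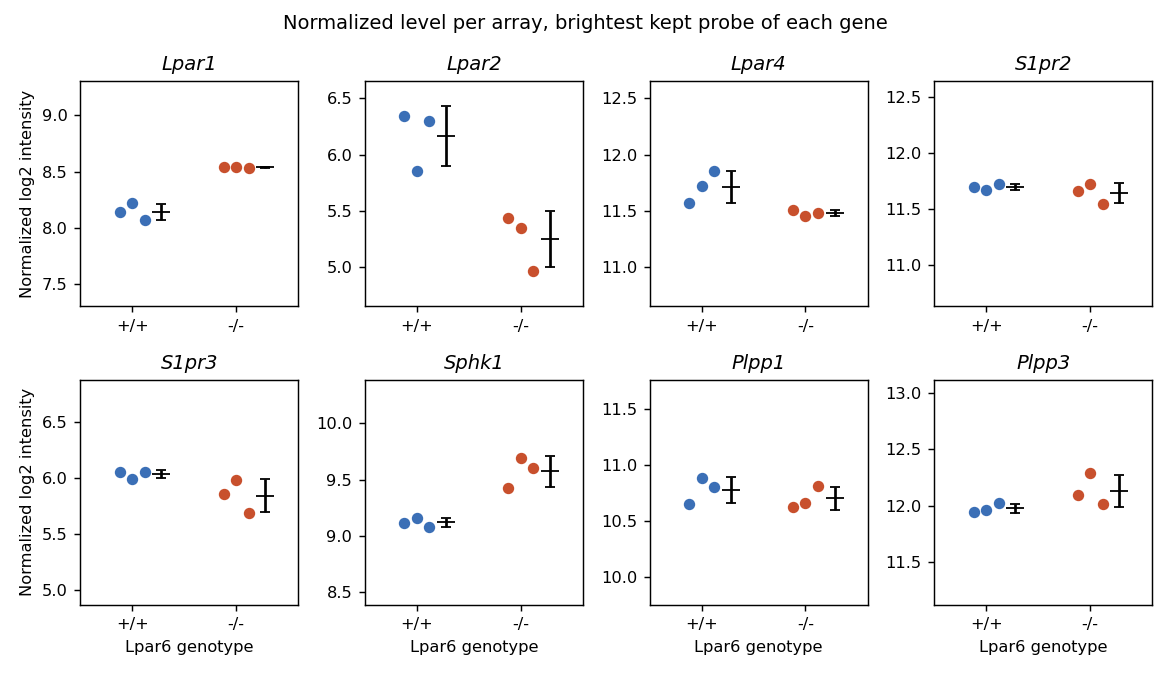
Normalized log2 intensity of the brightest kept probe of each of the 8 kept genes, by Lpar6 genotype; points are arrays, black bars the mean ± SD of 3 arrays, and every panel spans 2 log2 units. The 3 knockout points lie above all wild-type points for Lpar1 and Sphk1 and below them for Lpar2, Lpar4 and S1pr3.

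The S1P receptor genes did not pass the test. S1pr1, the receptor best known from endothelial cells and lymphocytes, was not detected on any array: its only probe (ILMN_2747124) read 83.6, 85.1 and 73.2 in the wild type and 79.2, 73.5 and 76.3 in the knockout, with detection p-values of 0.672 to 0.907. No difference of S1pr1 was detectable at this signal. S1pr2, an S1P receptor that couples to several G proteins, was read by 2 kept probes. The brighter (ILMN_2773936) read 3666, 3261 and 3289 in the wild type and 3115, 3573 and 3067 in the knockout. The groups overlapped, and the change was -0.05 ± 0.089 (95% confidence interval -0.25 to 0.15, adjusted p = 0.675), smaller in size than that of 87.5% of all genes. The second S1pr2 probe (ILMN_2964522) read 512, 456 and 426 in the wild type and 407, 397 and 371 in the knockout. Its intensities did not overlap, but its normalized values did, with a change of -0.096 ± 0.092 (adjusted p = 0.447). Another S1pr2 probe (ILMN_1236022) was detected on no array.

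S1pr3, which couples to Gq, Gi and G12/13 proteins and is known from smooth muscle and fibroblasts, read 148, 141 and 136 in the wild type and 121, 127 and 112 in the knockout (ILMN_2935985). All knockout values were below all wild-type values on both scales. The normalized change was -0.19 ± 0.0998 (95% confidence interval -0.41 to 0.03) and did not pass (adjusted p = 0.166). Only median scaling gave a call (-0.38, adjusted p = 0.0218), and the adjusted p over the 18 alternatives went up to 0.416. The other S1pr3 probe (ILMN_2650032) was detected on no array. The S1P receptors outside the chosen genes were at background too: S1pr4 read 84.2 to 97.9 with 0 of 6 values detected, and S1pr5 72.7 to 103 with 1 of 12 values detected.

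Among the enzymes, the S1P-producing kinase gene Sphk1 rose and the phosphatase genes gave mixed readings between their probes. Sphk1 (ILMN_1232884) read 706, 657 and 614 in the wild type and 693, 884 and 810 in the knockout. The intensity of knockout array D lay within the wild-type range, whereas no normalized value did. The normalized level was 9.12 ± 0.042 (SD, n = 3) in the wild type and 9.57 ± 0.14 in the knockout, a rise of 0.45 ± 0.099 or 1.37-fold (adjusted p = 0.0059), and 25.6% of all genes had a larger change. Sphk1 stayed called under all 18 alternatives, with changes of 0.35 to 0.53 and adjusted p-values of 8.98e-05 to 0.0397. Of the other Sphk1 probes, ILMN_2732199 was detected on no array and ILMN_2650336 on knockout array E alone.

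Plpp3, a phosphatase that degrades extracellular LPA and S1P, was read by 2 kept probes that differed in their call. The brighter (ILMN_2630993) read 4311, 3949 and 3932 in the wild type and 4281, 5346 and 4291 in the knockout. The groups overlapped, with array E highest, and the change was 0.16 ± 0.099 (95% confidence interval -0.07 to 0.38, adjusted p = 0.249). The dimmer (ILMN_1247753) read 319, 321 and 248 in the wild type and 344, 321 and 307 in the knockout. Its intensities overlapped, its normalized values did not, and it was called higher (0.41 ± 0.13, adjusted p = 0.0318). That call was lost with the removal of wild-type array A or C or knockout array D or E (adjusted p = 0.0617, 0.103, 0.0936 and 0.0538), with median scaling (adjusted p = 0.16) and without the detection filter (adjusted p = 0.0645). With the mean of both probes as the value of the gene, Plpp3 was called higher (0.28, adjusted p = 0.028).

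Plpp1, the related phosphatase, did not pass with any of its 3 kept probes. The brightest (ILMN_2759079) read 1892, 1959 and 1809 in the wild type and 1521, 1681 and 1831 in the knockout. These overlapped, and the change was -0.078 ± 0.10 (95% confidence interval -0.30 to 0.15, adjusted p = 0.576). A second probe (ILMN_1258830) gave -0.039 ± 0.083 (adjusted p = 0.747). The dimmest (ILMN_1222991) read 186, 183 and 176 in the wild type and 165, 201 and 194 in the knockout, and gave 0.33 ± 0.12 (adjusted p = 0.0535). That probe passed under 8 of 17 alternatives, including the authors' log2 values (0.21, adjusted p = 0.0301) and the fit without knockout array D (0.46, adjusted p = 0.00724).

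**Figure D3:**
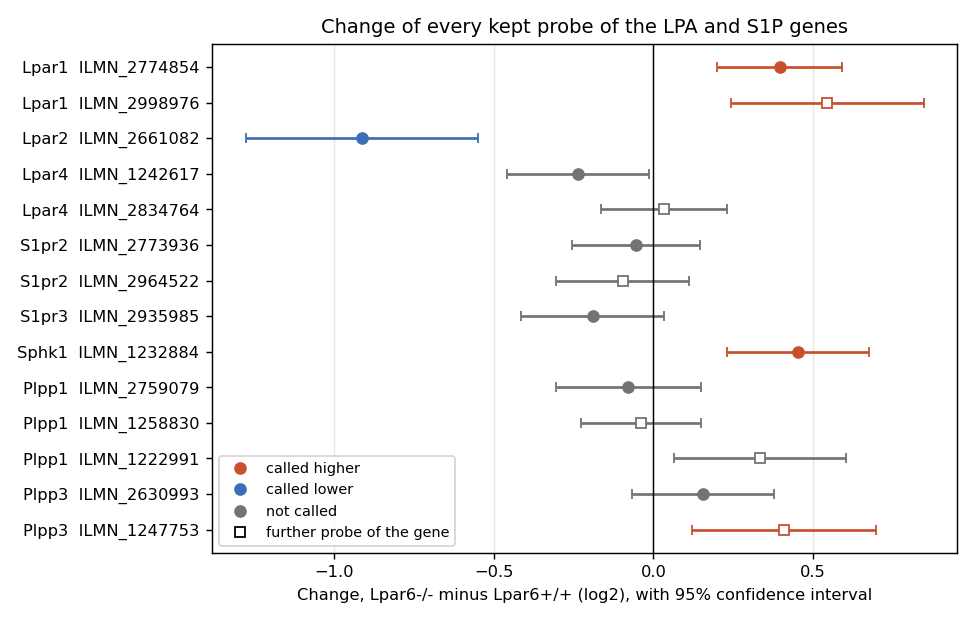
Change (log2, knockout minus wild type) of the 14 kept probes with 95% confidence intervals; filled circles are the brightest probe of a gene, open squares further probes, red called higher, blue called lower and grey not called. Both Lpar1 probes lie to the right of 0, while Lpar4, Plpp1 and Plpp3 have probes that differ in sign or call.

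Over all kept probes of these genes, 5 of 14 were called, 4 higher and 1 lower, beside 37.9% of all kept probes (19.3% higher and 18.6% lower). The normalized groups did not overlap in 9 of the 14 probes and in 5 of the 8 genes, beside 50.3% of all kept probes and 52.8% of all genes. Without normalization 6 of the 14 probes lay lower in the knockout with no overlap and 1 higher, a split near that of all kept probes (39.4% lower and 10.6% higher). The intensities of 3 of the 4 probes called higher overlapped. Those 3 are the second Lpar1 probe, the dimmer Plpp3 probe and the Sphk1 probe, so their rises are relative to the other probes of each array. The 3 called genes kept their direction under each alternative in which they were measured.

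**Figure D4:**
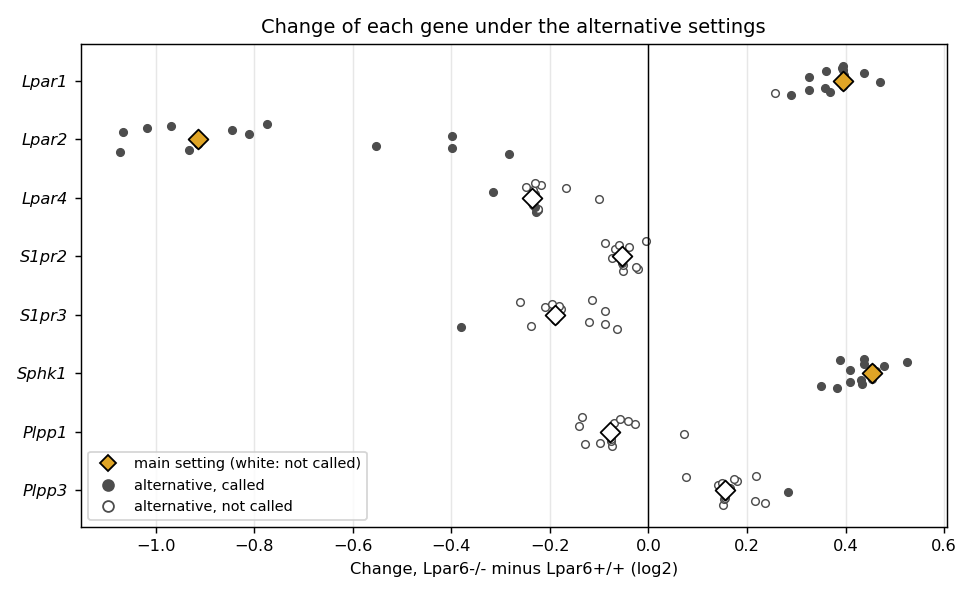
Change (log2, knockout minus wild type) of the brightest kept probe of each gene, or of the mean of its probes. Diamonds show the main setting and circles the alternatives, except that with an adjusted p threshold of 0.01. Filled symbols had an adjusted p below 0.05. Lpar2 ranges from -1.07 to -0.28 and is always filled, while Lpar4 lies on both sides of the threshold.

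The genes that make and remove these lipids around the chosen members moved in both directions. Of 11 genes that produce LPA, 9 had a probe and 6 were kept, with 1 higher and 2 lower. That share was 50%, beside 39.7% of all genes (20.6% higher and 19.1% lower). Gdpd1, an enzyme of the lysophospholipase D type, fell by 0.76 ± 0.10 (adjusted p = 0.000405). Pla1a, a phospholipase acting on phosphatidylserine, had a called change of 0.35 ± 0.10 by its brightest probe. That call was lost with median scaling (0.16, adjusted p = 0.312) and without wild-type array B or C or knockout array D (adjusted p = 0.0544, 0.0707 and 0.0624). The further kept probes of Pla1a gave 0.163 and 0.65, and 1 of its 3 kept probes was not called. Gpat3, an acyltransferase that makes LPA inside cells, was not detected on any knockout array and was at least 1.05-fold lower (adjusted p = 0.0138). It passed the filter through the wild-type arrays alone, so it could hardly be called other than lower. The call of Gpat3 was lost under 6 of 17 alternatives. Among them were the authors' log2 values (adjusted p = 0.106), no background correction (adjusted p = 0.162) and an offset of 50 (adjusted p = 0.111).

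Of the 9 genes that break down or acylate LPA, all were kept, with 3 higher and 2 lower (55.6%, beside 39.7% of all genes). The acyltransferases that turn LPA into phosphatidic acid split: Agpat3 (0.77 ± 0.19) and Agpat2 (0.66 ± 0.15) rose, and Agpat5 (-0.69 ± 0.096) and Agpat4 (-0.46 ± 0.095) fell, with adjusted p-values of 0.0121, 0.00689, 0.000486 and 0.00418. Acp6, a mitochondrial LPA phosphatase, rose by 0.58 ± 0.090 (adjusted p = 0.000918). Agpat2 is needed for fat cells, and on these arrays the 9 kept adipocyte markers were higher, some of them kept through the knockout arrays alone. The part of that shift in the Agpat2 change was not tested.

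Of the 10 genes of S1P synthesis, breakdown and transport, 6 were kept, with 2 higher, Sphk1 among them, and 1 lower. The share called was 50%, beside 39.7% of all genes. Sgpp1, a phosphatase that returns S1P to sphingosine inside the cell, rose by 0.77 ± 0.10 (adjusted p = 0.00037), from 8.78 to 9.55. Apom, the carrier of S1P in plasma, fell by 0.86 ± 0.14 by its brightest probe (adjusted p = 0.00129), which was detected on 1 knockout array, while its other kept probe gave 0.087 and did not pass. Sphk2, the other sphingosine kinase, had a change of -0.14 ± 0.090 (adjusted p = 0.268). Sgpl1, the lyase that cleaves S1P for good, had a change of 0.037 ± 0.12 (adjusted p = 0.832). The S1P exporter gene Spns2 was not kept.

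The relatives of the lipid phosphatases, 7 of 9 kept, were lower in 3 and higher in 1 (57.1%, beside 39.7% of all genes). Those that fell belong to the plasticity-related genes, known mainly from neurons. Plppr5 fell by 1.22 ± 0.15 (adjusted p = 0.000199) and was detected on 2 knockout arrays. Plppr1, by its brightest probe, and Plppr3 were detected on no knockout array and passed the filter through the wild-type arrays alone. Probes kept in this way can hardly be called other than lower, and both genes are among the 3 lower. They were at least 1.46-fold and 1.10-fold lower (adjusted p = 8.89e-05 and 0.0034). A further Plppr1 probe (ILMN_1218474) gave -0.17 and did not pass. In the authors' log2 values that probe was the brighter of the pair and did not pass either (-0.066, adjusted p = 0.483), while the called probe (ILMN_2841788) kept its call there (-0.45, adjusted p = 3.17e-05). The call of Plppr3 was lost with no background correction (adjusted p = 0.0572). On the same arrays all 7 kept neuronal markers were lower, and their part in these falls was not tested. Plpp5, a phosphatase expressed more widely, rose by 0.68 ± 0.089 (adjusted p = 0.000352).

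**Figure D5:**
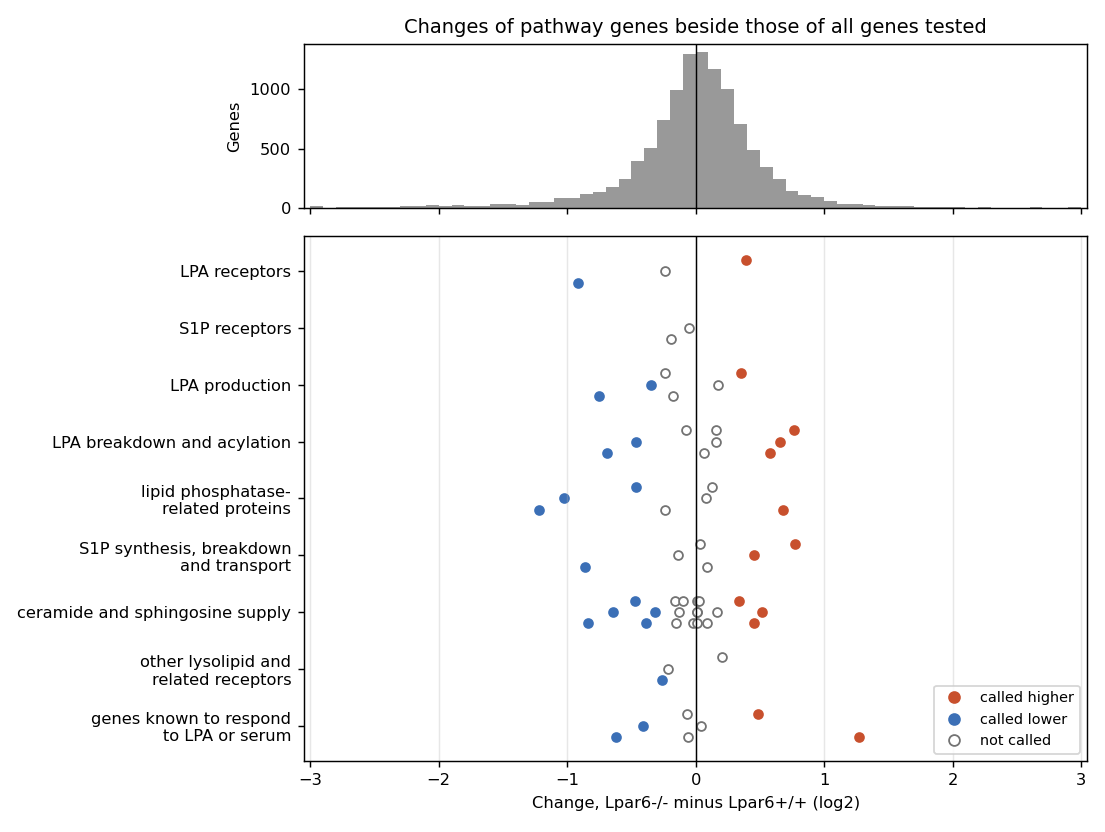
Change (log2, knockout minus wild type) of every kept gene of the 9 pathway lists (lower panel, 1 point per gene, Lpar6 left out) beside the changes of all 11040 genes (upper panel, number of genes per bin of 0.1, values beyond 3 in the end bins). Most points lie within 1 log2 unit of 0, with called genes on both sides of 0.

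Over all 9 lists, 31 of 64 kept genes were called, 13 higher and 18 lower (48.4%, beside 39.7% of all genes). The deleted gene Lpar6 is among those lower. Without Lpar6 and the chosen genes, 11 of 55 kept genes were higher and 16 lower (49.1%). The median change over all 9 lists was -0.055 and that of all genes 0.027.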

How the data were processed

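RNA of 6 samples was measured on Illumina bead arrays (biotin-labelled cRNA, per the labels' protocols), all carrying 1 slide number in the labels. The authors deposited non-normalized intensity values and a detection p-value per probe and array. The authors also deposited log2 values; limma, with no version, is the tool listed in the submitters' processing notes. These matched quantile-normalized log2 intensities without background correction to within 9.01e-05 in each group's mean. They are not centred (all column medians are 6.54) and have no turned sign. The intensity columns are lettered within a genotype and unnumbered, so they were assigned by genotype alone.

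The neqc function (limma 3.58.1, R 4.3.3) corrected the background by normexp from the detection p-values, added an offset of 16, which shrinks changes of dim probes, and gave quantile-normalized log2 intensities. The filter on low values asked for detection (p below 0.05) on 3 or more of the 6 arrays and left 19802 probes. Symbols came from GEO's platform annotation (34885 probes with 1 symbol, 18 with several, 10378 unnamed), of which 34807 matched RefSeq (GRCm38.p6) by Entrez ID. A gene is its brightest kept probe. Fits used lmFit and eBayes, with 4 residual degrees of freedom and 5.27 prior ones, and were tested on simulated data. The simulation used independent noise and set changes only in brighter probes, so it does not cover dim probes or dependence between arrays. The p-values were adjusted by Benjamini-Hochberg over the 19802 probes, with a threshold of 0.05. The number of arrays limits the precision, and an exact test of 1 gene on 3 against 3 arrays cannot give a p below 0.1.

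A bound ("at least") sets the brighter group's mean against, per array, the higher of the probe's value and the lowest detected value. The lipid genes, lists and promoter motifs were chosen with earlier results of these data known, and 1 further list is not reported here. Named genes are all members with every probe, Lpar6, and up to 4 called genes of each list with the largest change. Agpat4, Sphk2, Sptlc1, Sptlc2, Kdsr, Sgpl1, Lpar3, S1pr4 and S1pr5, single markers, and genes named as not kept or not passing, are outside that number.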

Additional observations from a re-analysis of the deposited data

How the results depend on the processing

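Of the 8 lipid genes, 2 to 4 were called under each of the 18 alternatives (3 in the main setting), where 20.8% to 46.1% of all genes were called, and Lpar1, Lpar2 and Sphk1 kept their direction in all that measured them. Lpar2 has no value with detection asked on all 6 arrays at 0.01. Over all genes 4379 were called, and 2876 at an adjusted p threshold of 0.01. Leaving out 1 array gave 3582 to 4067 genes. Median scaling gave 1393 genes higher and 2713 lower in place of 2273 and 2106. The sign of 2 changes that never passed turned: Plpp1 was 0.072 with the mean of its probes, and the second Lpar4 probe was -0.034 with median scaling and lay between -0.0038 and 0.076 without 1 array each. The cause was not tested. Over the pathway lists 21 to 33 genes were called (31 in the main setting, Lpar6 among them). Counts in single lists moved by more than 1.5 times where a few genes crossed the threshold or were no longer kept. Genes of ceramide supply called lower were 3 to 6 (5 in the main setting) and called higher 1 to 4 (3). LPA-producing genes called lower were 1 to 3 (2) and called higher 0 to 1 (1). Relatives of the lipid phosphatases called lower were 0 to 4 (3). The count of these relatives was 0 with detection p below 0.01 asked on all 6 arrays, where Plppr1, Plppr3 and Plppr5 were not kept. It was 1 without background correction, where Plppr1 was read by another probe and Plppr3 lost its call (limma adjusted p = 0.0572). The other list counts so moved were at most 1 gene, or the 2 LPA receptors called lower. These 2 are Lpar2 and the deleted gene Lpar6, and neither was kept with detection asked on all arrays. The labels give replicate numbers for the authors' log2 values only, and these numbers do not pair the samples. Deviations of same-numbered samples correlated at -0.054 to 0.020, and 0 of 6 samples correlated best with their own number. With the replicate number as a block 4906 genes and 4 lipid genes were called, and without it 4951 and 4. Depth of signal limits dim probes such as those of Lpar2: the lowest intensity of a detected probe was 94.2 to 104 over the arrays.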

Other observations

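Of 25 genes of ceramide and sphingosine supply 20 were kept, with 3 higher and 5 lower (limma), a share of 40% beside 39.7% of all genes. The kept genes of the first steps, Sptlc1, Sptlc2 and Kdsr, did not pass by their brightest probes, with changes of -0.023, 0.013 and 0.0093. The other kept probe of Kdsr gave 0.25 and was called higher, so the probes of Kdsr differed in their call. Smpd3 (-0.84 ± 0.099, adjusted p = 0.000171), a sphingomyelinase known from cartilage and brain, fell, and on the same arrays all 8 cartilage markers were lower, whose part was not tested. The ceramide synthase gene Cers4 was detected on no knockout array and was at least 1.35-fold lower (adjusted p = 0.000525). It passed the filter through the wild-type arrays alone, so it could hardly be called other than lower. The ceramidase gene Acer2 fell by 0.48 ± 0.11 (adjusted p = 0.00931) and the sphingomyelinase gene Smpd2 rose by 0.52 ± 0.10 (adjusted p = 0.00401).

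Of 11 genes known to respond to LPA or serum in fibroblasts, 7 were kept. Cxcl1 (1.27 ± 0.10) and Fos (0.49 ± 0.12) rose, Ccn2 (-0.62 ± 0.10) and Thbs1 (-0.41 ± 0.089) fell, and Ccn1, Egr1 and Hbegf did not pass. The share called was 57.1%, beside 39.7% of all genes. Of 17 other lysolipid and related receptor genes 3 were kept, and the thrombin receptor gene F2r (-0.26 ± 0.087, adjusted p = 0.042) was the 1 called (33.3%). F2r was not called with median scaling (-0.16, adjusted p = 0.304) or without wild-type array A, B or C or knockout array D or F (adjusted p = 0.0678 to 0.117).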
